A study of Mus musculus with 43 samples.

Results

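Brain endothelial cells (EC) keep the ionic composition of the brain fluid by passing sodium, potassium, chloride, protons and bicarbonate between blood and brain through exchangers, cotransporters, channels and pumps. The sodium-potassium pump sets the gradients that the exchangers and cotransporters use, and the potassium channels set the membrane potential and take part in the response of vessels to activity. The 7 genes described here encode such proteins: the sodium-proton exchanger Slc9a2, the cation-chloride cotransporters Slc12a2 and Slc12a7, the chloride-bicarbonate exchanger Slc4a2, the pump subunit Atp1b1, the inward-rectifier potassium channel Kcnj2 and the channel kinase Trpm7. They were chosen by symbol, each matched 1 row of the 54532 genes in the count table, and all 7 passed the filter on low counts.

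RNA from sorted EC of mice aged 2 months was sequenced in 43 libraries. Cells were gated as CD45-, CD11b- and CD31+ live cells after dissociation of the tissue and removal of myelin. The wild-derived strains CAST/EiJ and WSB/EiJ gave 6 libraries each, and the long-inbred strains gave 31, of which 9 were 129S1/SvImJ, 6 C57BL/6J, 6 NOD/ShiLtJ, 5 A/J and 5 DBA/2J. Cortex gave 21 and hippocampus 22 libraries, 16 libraries were from female and 27 from male mice, and the labels name no transgene or treatment. The titles also hold the word high or low, which neither the labels nor the study's methods define, and 15 of 16 female against 14 of 27 male libraries were titled high. Which mouse each library came from is not in the labels, and p-values therefore measure the spread between libraries, which may be partly technical.

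Library totals ran from 1626534 to 49372356 counted reads, and the median total was 21242058 in female and 5257353 in male libraries. Counts on 3 rRNA-like genes (Gm23935, Gm42418 and Gm26917) took 1.59% to 12.1% of a female and 13% to 29.3% of a male library, so this share and sex did not overlap and cannot be told apart. The 20 endothelial markers had the highest mean of the 9 marker lists, 9.15 ± 0.32 (SD, n = 43) on the log2(CPM + 1) scale, where CPM is the count relative to the library's TMM-scaled total. Pericyte markers averaged 6.83, astrocyte markers 5.59 and neuronal markers 4.71 on that scale, and no marker of any list stayed under 3 counts in every library. In bulk RNA of sorted cells, fewer cells of a type and less RNA per cell cannot be told apart.

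Per kb of exon, which allows levels of different genes to be compared, Atp1b1 stood at 12.1 ± 8.35 CPM (SD, n = 43) and Slc12a2 at 11.8 ± 6.52. Kcnj2 followed at 8.47 ± 5.0, Trpm7 at 6.55 ± 3.22, Slc4a2 at 5.61 ± 2.73 and Slc12a7 at 4.60 ± 2.36, and Slc9a2 was lowest at 2.62 ± 2.14. The ranges of all 7 genes over the libraries overlapped on this scale. On the log2(CPM + 1) scale the SD over the libraries was 1.23 for Slc9a2, 1.12 for Kcnj2 and 0.93 for Atp1b1, against 0.62 for Slc12a2. In 42 of 43 libraries each of the 7 genes had more than 3 counts. The exception was the female WSB/EiJ hippocampus library, with 0 counts of Kcnj2 among 4309378, which allows up to 0.731 CPM (3 counts, counting error only), and 1 count of Slc9a2.

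**Figure D1:**
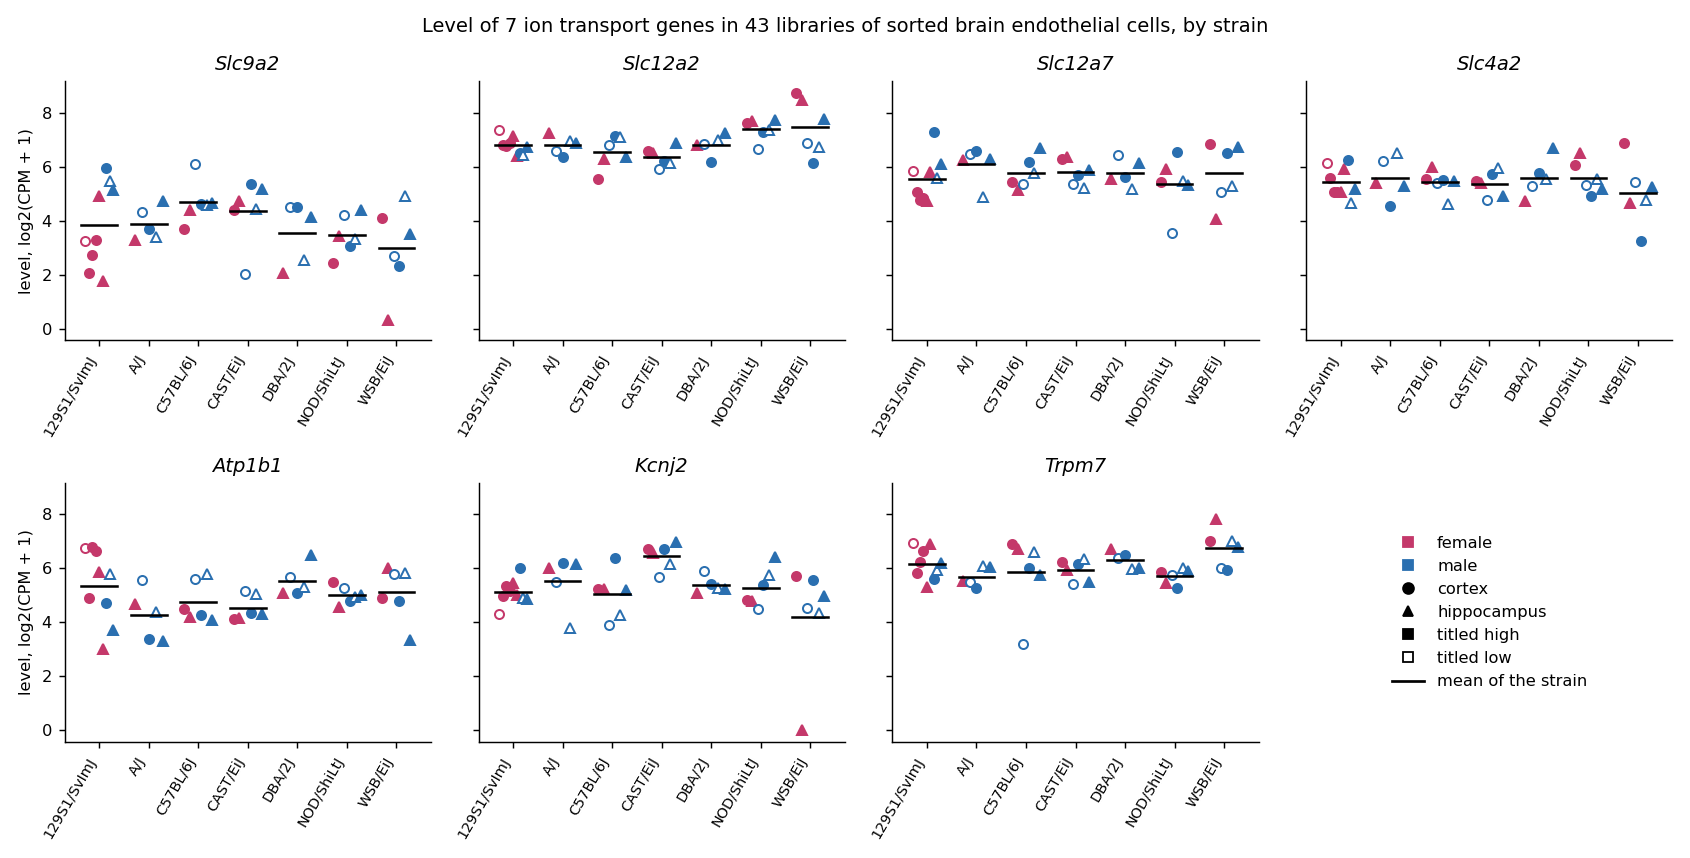
Level of each of the 7 genes on the log2(CPM + 1) scale (y axis) in every library, by strain (x axis). Colour marks sex, shape the region, filled and open symbols the title tag, and the bar the mean of the strain. The female WSB/EiJ libraries are highest for Slc12a2, CAST/EiJ has the highest mean of Kcnj2, and single libraries stand apart for Kcnj2, Slc12a7, Slc9a2 and Trpm7.

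Among strains, 1 of the 7 genes passed the test, Slc12a2. Over all 29120 genes 2.68% passed the same test (edgeR's quasi-likelihood test over 7 strains, Benjamini-Hochberg adjusted p under 0.05). Slc12a2 (chromosome 18, 57878678 to 57946821, + strand) encodes NKCC1, which carries sodium, potassium and chloride into cells together. In WSB/EiJ it stood at 425 CPM in the female cortex library and at 353 in the female hippocampus library. These libraries were shallow for female ones, with totals of 2731954 and 4309378 counted reads. The female C57BL/6J cortex library had 3892336, and all other female libraries had 18623939 to 49372356. The sexes were not evenly split over the strains, and the main fit held no covariate for sex. The 4 male WSB/EiJ libraries were at 218, 117, 104 and 68.9 CPM. Both female libraries thus lay above every other library of the series, and the male hippocampus library titled high, at 218, also lay just above the highest library of any other strain (211 in NOD/ShiLtJ), while the other 3 male libraries lay within the range of the other strains.

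By mean NOD/ShiLtJ came next after WSB/EiJ. It ranged from 100 to 211 CPM with a median of 178.7, above the WSB/EiJ median of 167.9. CAST/EiJ was lowest, from 59.2 to 116 CPM with a median of 81.6. The medians of the other strains lay close together, at 116.5 in A/J, 112 in DBA/2J, 107.5 in 129S1/SvImJ and 96.3 CPM in C57BL/6J. Neighbours in this order of strains did not differ beyond their spread (adjusted p from 0.936 to 1.0 for the 6 neighbouring pairs, edgeR). Of the 21 pairs of strains, WSB/EiJ against CAST/EiJ passed for Slc12a2, with 214.5 ± 145.7 against 83.9 ± 20.8 CPM (SD, n = 6 each), a log2 fold change of 1.35 (SE 0.31, adjusted p = 0.0073, edgeR). The WSB/EiJ mean of this pair includes the female libraries at 425 and 353 CPM. Without both, no pair of strains differed in Slc12a2 by more than 1.05 on the fitted log2 scale (edgeR). No other gene of the 7 passed in any of the 21 pairs, while 0.45% of all gene and pair tests did.

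The adjusted p of Slc12a2 among strains was 0.013, from an unadjusted p of 0.00021 (edgeR). A permutation of the strain labels over the libraries, added after seeing the data, gave an unadjusted p of 0.009 for this gene alone. That value is larger than the unadjusted p of edgeR and was not adjusted over all genes. In simulated data the test over strains called more false positives than its nominal rate. The call held with 41 of 43 single libraries left out. It was lost without the female WSB/EiJ hippocampus library (adjusted p = 0.075) or without the female WSB/EiJ cortex library (0.111), and without both it was 0.230 (edgeR). Within male libraries the adjusted p was 0.892, within cortex 0.878 and within hippocampus 0.324. Across the 43 libraries Slc12a2 rose with the mean of the 10 pericyte markers, at a Pearson's r of 0.54 (permutation p = 0.00021, adjusted 0.0051 over 49 relations) and a Spearman's rho of 0.52 (permutation p = 0.00041, adjusted 0.0087). Without the 2 libraries farthest from the median of Slc12a2 r was 0.51, and it was 0.76 in female and 0.56 in male libraries. The pericyte mean was also highest in WSB/EiJ, at 6.88 to 8.17, and next in NOD/ShiLtJ, at 6.97 to 7.92, and its part in the strain difference was not tested.

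Kcnj2 (chromosome 11, 111066164 to 111076821, + strand) encodes Kir2.1, a channel that carries potassium near the resting potential. In CAST/EiJ its level ran from 50.0 to 124 CPM with a median of 98.9. The medians of the other strains were 64.0 in A/J, 37.8 in DBA/2J, 36.2 in C57BL/6J, 33.6 in NOD/ShiLtJ, 31.6 in 129S1/SvImJ and 26.4 CPM in WSB/EiJ. The strains overlapped, since 3 libraries of A/J, 2 of NOD/ShiLtJ and 1 each of C57BL/6J, DBA/2J, 129S1/SvImJ and WSB/EiJ lay above the lowest CAST/EiJ library. Over 7 strains the fitted log2 range was 1.69 with an adjusted p of 0.237 (unadjusted 0.014, edgeR), which did not pass. The permutation of strain labels gave an unadjusted p of 0.014 for this gene alone. Without the 4 libraries in which any of the 7 genes stood apart, a choice made after seeing the data, the adjusted p was 0.030, but 2 of the 4 were picked for the low value of Kcnj2 itself, which narrows its spread by construction, so that this value supports no difference.

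Trpm7 (chromosome 2, 126791565 to 126876230, - strand) encodes a channel for divalent cations, magnesium among them, that is fused to a protein kinase. Its level in WSB/EiJ was 59.6 to 224 CPM with a median of 119, and the highest value was that of the female hippocampus library. The medians elsewhere ran from 45.4 CPM in A/J to 82.8 in DBA/2J, inside the range of WSB/EiJ except for A/J and NOD/ShiLtJ, whose medians lay below its lowest library. The fitted log2 range over strains was 1.2, with an adjusted p of 0.286 (edgeR).

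Atp1b1 (chromosome 1, 164437109 to 164458355, - strand) encodes the beta 1 subunit of the sodium-potassium pump, which needs a beta subunit to reach the membrane. Of the 4 female cortex libraries of 129S1/SvImJ, 3 stood at 111, 107 and 99.6 CPM and the last at 28.9 CPM. No other library of the series exceeded 89.7 CPM, and the strains overlapped otherwise, with medians from 19.1 CPM in CAST/EiJ to 54.6 in 129S1/SvImJ. The same 3 libraries had the 3 highest means of the neuronal markers, 6.88, 6.65 and 6.19. Among strains the adjusted p of Atp1b1 was 0.407 (edgeR).

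The remaining 3 genes showed no call among strains. Slc4a2 (chromosome 5, 24423837 to 24440950, + strand), which encodes the exchanger AE2, had the narrowest spread of strain medians, from 31.8 CPM in WSB/EiJ to 45.0 in DBA/2J, and an adjusted p of 0.987. Slc12a7 (chromosome 13, 73733094 to 73816754, + strand) encodes KCC4, which moves potassium and chloride out of cells, and its strain medians ran from 42.4 in NOD/ShiLtJ to 77.5 CPM in A/J (adjusted p = 0.939). Slc9a2 (chromosome 1, 40680574 to 40769273, + strand) encodes NHE2, which exchanges sodium for protons, and its strain medians ran from 7.93 in WSB/EiJ to 23.3 CPM in C57BL/6J (adjusted p = 0.816, edgeR for all 3 genes). In the annotation Slc9a2, Slc4a2, Atp1b1 and Trpm7 each overlap a gene on the other strand (Gm37623, Fastk with Gm22333, Nme7 and Gm14212). The libraries keep strand, but the strand setting of the counting is not given in the sources used here, so reads of these overlaps are uncertain.

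Within their families, 3 of the genes were the highest on the scale of CPM per kb. Slc12a2 took 31.7% ± 9.52 (SD, n = 43) of the summed level of the 9 Slc12a genes and was the highest of them in 24 of 43 libraries. Slc4a2 took 70.3% ± 19.8 of the 3 chloride-bicarbonate exchangers Slc4a1 to Slc4a3 and was highest in 36 libraries. Trpm7 took 50.4% ± 14 of the 8 Trpm genes and was highest in 39 libraries. These genes were thus the leading family members in most libraries, and the next ones by mean level were Slc12a4 at 9.33, Slc4a3 at 2.29 and Trpm4 at 2.60 CPM per kb.

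Atp1b1 stood below Atp1b2 at 61.5 CPM per kb in 42 libraries and below Atp1b3 at 31.2 in 40 libraries. Kcnj2 stood below Kcnj10 at 38.0 and Kcnj8 at 12.9 CPM per kb. Atp1b2 and Kcnj10 are also known from astrocytes, and Kcnj8 is a pericyte marker and a member of the pericyte list. Slc12a7 took 20.3% ± 8.81 (SD, n = 43) of the summed level of the 4 potassium-chloride cotransporters and was the highest of them in 2 libraries, and Slc12a4 stood above it in 35.

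**Figure D2:**
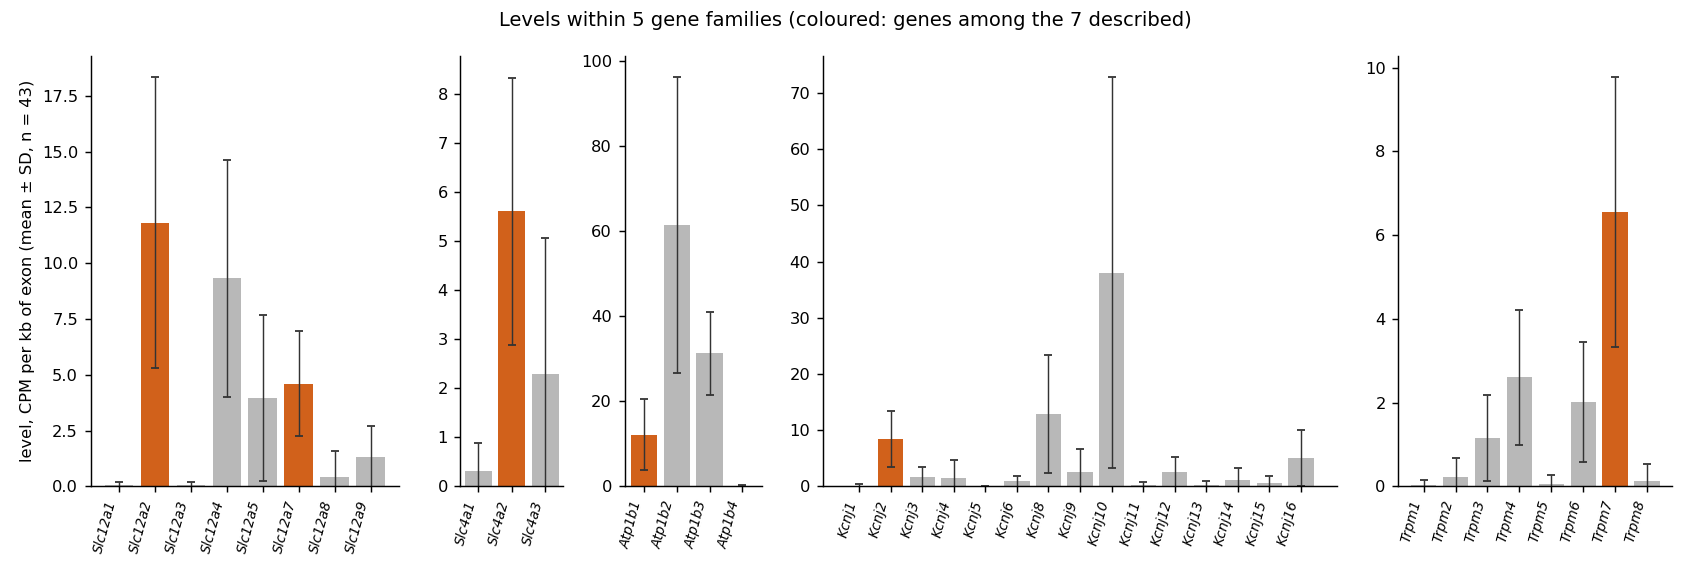
Mean level in CPM per kb of exon with SD over the 43 libraries (y axis) for the genes reported here of 5 families (x axis, with Slc12a2 and Slc12a7 in 1 panel). Coloured bars are genes among the 7 described. Slc12a2, Slc4a2 and Trpm7 are the highest bars of their panels, while Atp1b1 and Kcnj2 stand under Atp1b2 and Kcnj10.

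Between wild-derived and long-inbred strains none of the 7 genes passed the test, where 0.749% of all genes did. Kcnj2 was at 59.7 ± 39.4 CPM in 12 wild-derived libraries and 40.9 ± 19.1 in 31 long-inbred libraries (SD), a log2 fold change of 0.55 (SE 0.30, adjusted p = 0.749, edgeR). The wild-derived libraries spanned 0.0 to 124 CPM, since CAST/EiJ held the highest and WSB/EiJ the lowest mean of all strains. Without WSB/EiJ, so that CAST/EiJ alone stood against the long-inbred strains, the log2 fold change was 1.13 (adjusted p = 0.013), and without CAST/EiJ it was -0.53 (adjusted p = 0.802, edgeR). Origin is a property of whole strains, but these fits count libraries as units, so their p-values do not measure the spread between strains. With counts summed per strain, 7 genes in all were called by origin, against 218 in the main fit. Trpm7 was at 90.7 ± 51.2 and 67.8 ± 27.2 CPM (SD, n = 12 and 31), a log2 fold change of 0.42 (SE 0.22, adjusted p = 0.744). The fitted log2 differences of the other 5 genes lay between -0.34 for Atp1b1 and 0.30 for Slc12a2 (adjusted p from 0.754 to 0.957), and the median of all genes was -0.38.

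Between cortex and hippocampus none of the 7 genes passed either, and 0.0755% of all genes did. Atp1b1 showed the largest fitted difference of the 7, at 42.2 ± 29.2 CPM in 21 cortex and 32.4 ± 21.5 in 22 hippocampus libraries (SD), a log2 fold change of -0.39 (SE 0.27, adjusted p = 0.669, edgeR). Trpm7 differed by 0.24 (SE 0.20) and the other 5 genes by -0.21 to 0.19 on the log2 scale. The ranges of the regions overlapped for every gene. In 18 sets of libraries that shared strain, sex and title tag, Slc12a2 was higher in hippocampus in 13 and lower in 5, and Atp1b1 was higher in 6 and lower in 12. For the remaining genes these counts lay between 6 and 11 of 18 in the direction of hippocampus.

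Between the sexes none of the 7 genes passed, and 2.85% of all genes did. Slc9a2 had the largest difference. It ranged from 0.244 to 28.8 CPM with a median of 8.79 in 16 female libraries, and from 3.06 to 67.9 CPM with a median of 20.7 in 27 male libraries. The ranges overlapped widely, although female values were the lower ones in 11 of 12 sets of libraries that shared strain, region and title tag. The log2 fold change was -1.03 (SE 0.38, adjusted p = 0.163, edgeR), and DESeq2 gave -1.15 with an adjusted p of 0.028. The study names Slc9a2 for its sex difference in these same libraries, so the value is no independent evidence of its direction.

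Trpm7 was at 91.6 ± 46.8 CPM in female and 63.8 ± 24.1 in male libraries (SD, n = 16 and 27), with female values the higher ones in 9 of 12 such sets, a log2 fold change of 0.52 (SE 0.20, adjusted p = 0.184, edgeR). It was 0.32 (adjusted p = 0.522) without the female WSB/EiJ libraries, and 0.06 (adjusted p = 0.995) with the rRNA-like share as a covariate. Slc12a2 was at 154 ± 101.5 and 114.0 ± 40.1 CPM, a log2 fold change of 0.43 (SE 0.18, adjusted p = 0.257), which was 0.09 (adjusted p = 0.835) without the female WSB/EiJ libraries. Fitted with the rRNA-like share as a covariate, Slc9a2 had a log2 fold change of -0.63 (adjusted p = 0.901). This share did not overlap between the sexes, so the fits with it for Trpm7 and Slc9a2 cannot separate it from sex. Fitted differences of the other 4 genes ran from -0.32 for Slc12a7 to 0.39 for Atp1b1.

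No interaction was called for any of the 7 genes. The shares of all genes called were 0.00343% for sex and region, 0.0206% for sex and origin and 0.0% for origin and region, where 675 genes had an unadjusted p under 0.05 (edgeR) and DESeq2 called 23. The interaction of sex and origin was largest for Slc12a2, at 1.14 on the log2 scale (SE 0.39), with an unadjusted p of 0.0048 and an adjusted p of 0.913 (edgeR). In WSB/EiJ the female libraries stood at 425 and 353 CPM, above the male range of 68.9 to 218. In CAST/EiJ, the other wild-derived strain, they stood at 95.8 and 90.3 CPM, within the male range of 59.2 to 116.

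Male libraries allow the title tags to be compared, with 14 titled high and 13 titled low. Of the 7 genes, Slc12a7 passed, against 1.06% of the 27529 genes tested in male libraries. Its level ran from 39.3 to 157 CPM with a median of 73.9 in libraries titled high, and from 10.6 to 87.5 CPM with a median of 40.0 in those titled low. The ranges overlapped, but within the 13 pairs of male libraries of the same strain and region the one titled high was the higher in 11. The exceptions were the cortex of DBA/2J and the hippocampus of NOD/ShiLtJ. The log2 fold change was 0.87 (SE 0.23, adjusted p = 0.043, edgeR).

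This call stood near the threshold. With each male library left out in turn the log2 fold change stayed between 0.76 and 0.99, but the adjusted p ran from 0.018 to 0.110 and passed in 9 of 27 cases. The libraries that could be left out with the call kept were both CAST/EiJ libraries titled high, the cortex libraries of DBA/2J, the DBA/2J hippocampus library titled high, the A/J cortex library titled low, the NOD/ShiLtJ hippocampus library titled high, the C57BL/6J cortex library titled high and the C57BL/6J hippocampus library titled low. Leaving out any other male library ended it, and so did leaving out the 3 male libraries in which a gene stood apart (0.77, adjusted p = 0.193). All 3 were titled low, and the A/J one was picked for its own low Slc12a7, so that their removal lowers the difference by construction.

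Kcnj2 and Atp1b1 did not pass in this comparison. Kcnj2 was at 28.1 to 124 CPM with a median of 55.3 in libraries titled high and at 12.7 to 70.3 CPM with a median of 28.9 in those titled low, and the one titled high was the higher in 10 of 13 pairs. Its log2 fold change was 0.83 (SE 0.26, adjusted p = 0.132, edgeR), and DESeq2 gave 0.83 with an adjusted p of 0.029. Atp1b1 went the other way, at 8.98 to 89.7 CPM with a median of 19.1 in libraries titled high and at 20.1 to 55.1 CPM with a median of 46.9 in those titled low. It was lower in the library titled high in 11 of 13 pairs, and the log2 fold change was -0.78 (SE 0.30, adjusted p = 0.327, edgeR). The DBA/2J hippocampus library titled high, at 89.7 CPM, stood against this direction, and leaving it out gave -1.11 (adjusted p = 0.026, edgeR). Slc9a2, Slc12a2, Slc4a2 and Trpm7 differed by -0.06 to 0.21 on the log2 scale, and the median of all genes was 0.04.

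**Figure D3:**
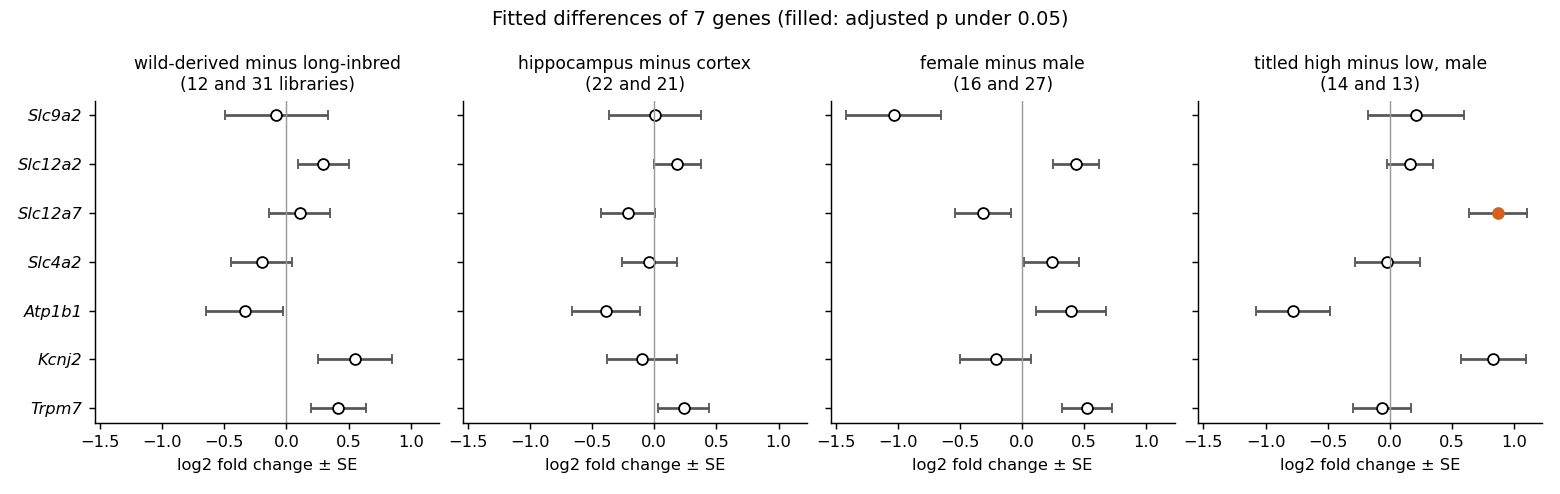
Fitted log2 fold changes with their SE (x axis) of the 7 genes (y axis) in 4 comparisons of libraries. A filled point passed the test over all genes, which is Slc12a7 by title tag alone. Slc9a2 between the sexes, at -1.03, is the largest difference and did not pass.

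**Figure D4:**
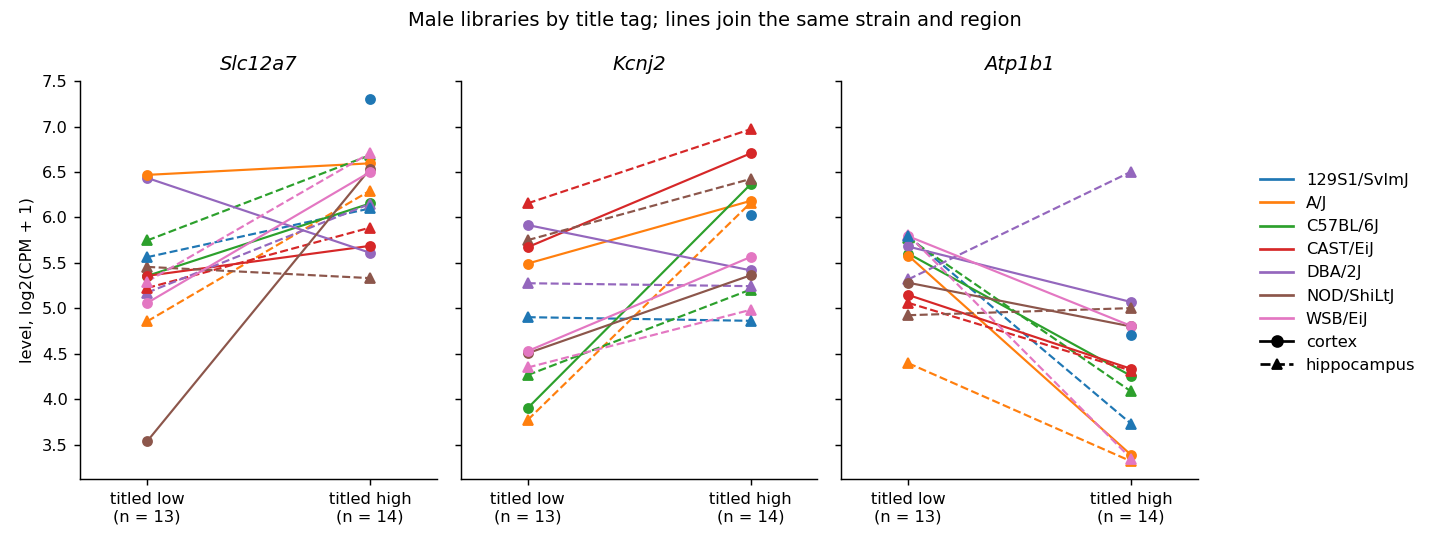
Level on the log2(CPM + 1) scale (y axis) of Slc12a7, Kcnj2 and Atp1b1 in male libraries titled low or high (x axis), with lines joining libraries of the same strain (colour) and region (symbol and line type). Slc12a7 rises along 11 of 13 lines and Kcnj2 along 10, and Atp1b1 falls along 11.

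Markers of other cells moved with the title tag. In male libraries the mean over the 8 neuronal markers was 4.16 (2.81 to 5.74) in those titled high and 5.30 (4.43 to 6.14) in those titled low, and all 8 genes had the lower mean in libraries titled high, 3 of them past the test. The mean over the 10 astrocyte markers was 5.28 (3.85 to 6.08) against 6.23 (5.47 to 6.95), lower for all 10 genes, 2 of them past the test. Oligodendrocyte markers were at 2.18 against 3.17, lower for 6 of 6 genes, 1 of them past the test. Endothelial markers were at 9.30 against 8.98, higher for 18 of 20 genes. Of these markers 4 passed the test as higher in libraries titled high and 1 as lower. Choroid plexus markers were at 1.41 against 1.09, higher for 8 of 8 genes with 0 past the test. Pericyte, smooth muscle, fibroblast and microglia markers were split, with 6 of 10, 5 of 10, 3 of 7 and 4 of 10 genes higher in libraries titled high. Of the pericyte markers 1 passed the test, as lower in libraries titled high. With the astrocyte and neuronal means as covariates the log2 fold change of Atp1b1 was -0.24, that of Slc12a7 0.83 and that of Kcnj2 0.78, and none passed (adjusted p = 1.0 for all 3, edgeR), in a fit that called 1 gene in all.

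Across all 43 libraries Atp1b1 rose with the neuronal mean, at a Pearson's r of 0.71 and a Spearman's rho of 0.72 (permutation p = 1e-05 each, the smallest value that 100000 resamples can give, adjusted 0.00049 over 49 relations). Without the 2 libraries farthest from the median of Atp1b1 r was 0.70, and it was 0.74 in female and 0.69 in male libraries. The genes most like Atp1b1 over the libraries among 10649 genes of at least 5 CPM were Syp (r = 0.78) and Nrgn (r = 0.75), a vesicle protein and a calmodulin-binding protein of neurons, and Nrgn is itself in the neuronal list. Slc12a7 fell as Atp1b1 rose, with r = -0.44 (permutation p = 0.0032, adjusted 0.031) and rho = -0.51 (permutation p = 0.00053, adjusted 0.0087), -0.44 without the 2 libraries farthest from the median, and -0.52 in female and -0.37 in male libraries. Slc12a7 and Kcnj2 rose together, with r = 0.51 (permutation p = 0.00078, adjusted 0.013) and rho = 0.43 (permutation p = 0.0039, adjusted 0.048), 0.37 without the 2 libraries farthest from the median, and 0.64 in female and 0.39 in male libraries. For Slc9a2 and Kcnj2 r was 0.45 (permutation p = 0.0027, adjusted 0.031), but rho was 0.28 (permutation p = 0.075, adjusted 0.35) and r was 0.20 without the 2 libraries farthest from the median, so that relation rests on those libraries. These 49 relations were computed between libraries whose mice are not known, and 4 of them passed by both measures.

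**Figure D5:**
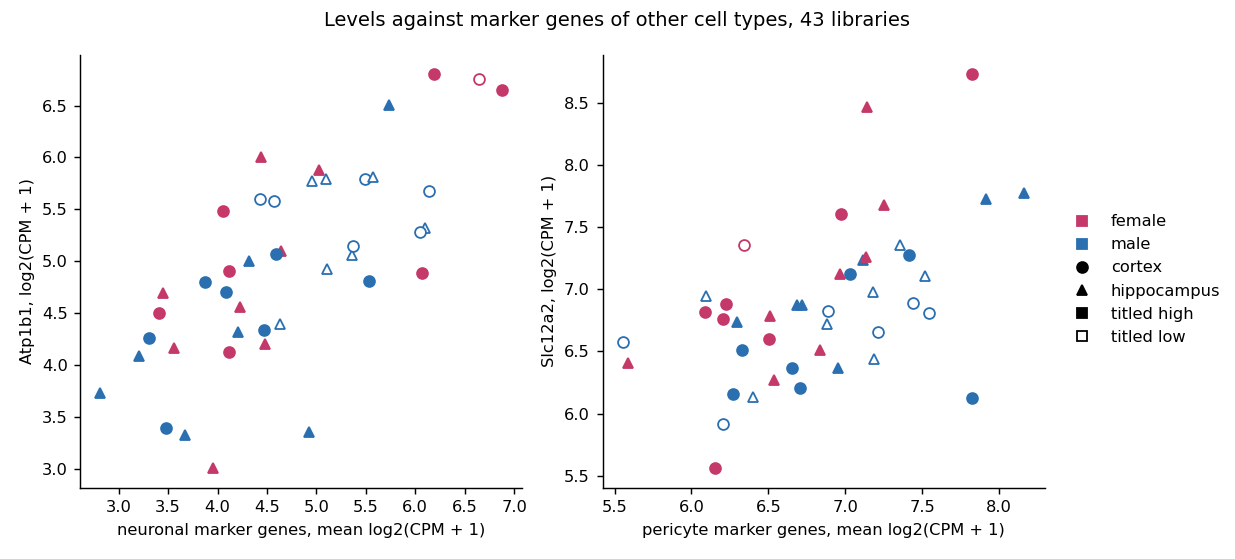
Level of Atp1b1 against the mean of the 8 neuronal markers, and of Slc12a2 against the mean of the 10 pericyte markers, all on the log2(CPM + 1) scale, with 1 point per library. Colour, shape and filling are as in the plot of levels by strain. Atp1b1 is highest in the 3 libraries with the highest neuronal mean, and the 2 highest points of Slc12a2 are the female WSB/EiJ libraries.

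Other genes with patterns like those of the 7 over the libraries are given as a description. They were Lhfpl2 (r = 0.81) and Snx3 (0.76) for Kcnj2, Magi1 (0.69) and Mycbp2 (0.68) for Trpm7, Gpc3 (0.63) for Slc12a2, and Tox4 (0.64) for Slc9a2. For Slc4a2 they were Ncoa1 (0.65) and Stag1 (0.54), and for Slc12a7 Sp1 (0.63) and Nrros (0.58). The points are 43 libraries that differ in depth and rRNA-like share, and the r of Tox4 with Slc9a2, for example, was 0.74 in female and 0.54 in male libraries.

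The genes of the same pathways were described from 7 lists with 122 of 124 genes tested. The list genes that passed among strains included, beside Slc12a2, the sulphonylurea receptor subunit Abcc9 at 257 ± 169 CPM, the calcium pump Atp2a3 at 126 ± 53.4 CPM and the mechanically gated channel Piezo2 at 4.28 ± 12.5 CPM. Piezo2 ran from 0.0 to 62.5 CPM and reached 3 counts in 13 of 43 libraries, so its call rests on few libraries. Abcc9, a pericyte marker here, had the smallest adjusted p, 2.1e-06. Between the origins no list gene passed. Between the regions the calcium pump Atp2b2 was lower in hippocampus by 1.51 on the log2 scale (SE 0.27, adjusted p = 0.0018) and the glial channel Kcnj10 by 1.32 (SE 0.25, adjusted p = 0.0045, edgeR).

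Between the sexes the scaffold Slc9a3r2 was higher in female EC by 0.49 (SE 0.14, adjusted p = 0.028) and Kcnj10 lower, with a log2 fold change of -0.99 (SE 0.28, adjusted p = 0.033, edgeR). Between title tags of male libraries Fxyd5, a regulator of the pump, was higher in those titled high by 0.74 and the lysosomal channel Mcoln1 by 1.06, together with Slc12a7. Lower in libraries titled high was the kinase Wnk1, which regulates the cation-chloride cotransporters, with -0.63. The sodium-bicarbonate cotransporter Slc4a4 with -1.11 and Trpm3 with -1.50 on the log2 scale were lower too (adjusted p from 0.00089 to 0.041 over these 5 genes, edgeR). With the astrocyte and neuronal marker means as covariates, the title tag fit called 1 gene in all, so most of these calls were not kept.

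By list, the sodium-proton exchangers and their scaffolds had 1 of 13 genes called, Slc9a3r2 by sex. The 17 cation-chloride cotransporters and kinases had 1 called among strains and 2 by title tag, and the 13 bicarbonate transporters and carbonic anhydrases 1 by title tag. Of the 24 pumps and exchangers tested, 2 were called among strains, 1 between regions and 1 by title tag. The 21 inward-rectifier and calcium-activated potassium channels had 1 called among strains, 1 between regions and 1 between sexes, the 26 TRP and Piezo channels 1 among strains and 2 by title tag, and the 8 magnesium transporters 0 in each of the 5 comparisons (edgeR). At an unadjusted p under 0.05, 2 of the 8 magnesium transporters stood among strains and 0 in the other comparisons, and 8 of the 24 pumps and exchangers among strains and 10 by title tag, where 10.7% of all genes did among strains and 8.11% by title tag. Across the other 5 lists this number ran from 1 to 4 genes among strains and from 3 to 6 by title tag. The median log2 difference by title tag was -0.93 for the potassium channels, -0.34 for the pumps and exchangers and -0.29 for the cotransporters and kinases. It was 0.22 for the magnesium transporters, 0.19 for the sodium-proton exchangers, 0.18 for the bicarbonate transporters and 0.17 for the TRP and Piezo channels, against 0.04 for all genes.

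Several abundant genes of these lists passed in none of the 5 comparisons. They include the carbonic anhydrase Car4 at 337 ± 126, the mechanically gated channel Piezo1 at 184 ± 54.2, the kinase partner Cab39 at 126 ± 40.1, the scaffold Slc9a3r1 at 58.9 ± 37.4, and the magnesium transporters Slc41a1 at 46.2 ± 20.1 and Magt1 at 28.4 ± 14.5 CPM (SD, n = 43). Car4 had an adjusted p of 0.052 among strains, near the threshold. Unadjusted p there was 0.028 for Piezo1 and 0.014 for Slc41a1 (edgeR), so the genes listed here are not shown to be unchanged.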

How the data were processed

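The authors aligned reads of rRNA-depleted total RNA to mm10 with HISAT2 (2.1.0) and counted them with featureCounts (Subread 1.4.4), and they deposited raw counts per gene without normalization. The strand setting and whether the libraries share mice are not given in the sources used here. Counts were scaled by TMM, and genes that reached 0.5 CPM in 1 library or more entered the test of edgeR (4.0.16, quasi-likelihood) in R (4.3.3), with no covariates and Benjamini-Hochberg adjustment over all genes. Log2 levels use a pseudocount of 1. Fits were tested on simulated data, in which the test over strains called more false positives than its nominal rate. Positions are from GENCODE M21. The genes, gene lists, marker lists and tests were chosen with earlier results of these data known. Named genes were the 7, list genes that passed, the 2 most abundant others of each list, and the 2 genes most correlated with each of the 7. Alternatives included DESeq2 (1.42.0), other filters, covariates and left-out libraries. Leaving out single libraries for strain and title tag, the libraries that stood apart and the female WSB/EiJ libraries, and the permutation of strain labels, were added after seeing the data. Some genes that this rule names are not reported here.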

Additional observations from a re-analysis of the deposited data

Results flagged for a closer look

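In 5 of 49 combinations of gene and strain, 1 library lay far from the others of its strain by Dixon's criterion, which chance alone meets in about 1 of 20 groups. The criterion was met on the log2(CPM + 1) scale, which spreads low values more than CPM does. Each was the lowest library of its strain. Kcnj2 was at 12.7 CPM in the male A/J hippocampus library titled low, against 44.1 to 71.6 CPM in the other A/J libraries, and Slc12a7 was at 28 CPM in that same library, against 75.4 to 95.7 CPM. Kcnj2 was at 0.0 CPM, with 0 counts, in the female WSB/EiJ hippocampus library, against 19.4 to 51.9 CPM. Slc9a2 was at 3.06 CPM, from 11 counts, in the male CAST/EiJ cortex library titled low, against 20.2 to 40.3 CPM. Trpm7 was at 8.25 CPM, from 39 counts, in the male C57BL/6J cortex library titled low, against 53.6 to 118.5 CPM.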

How the results depend on the processing

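Among strains, 1 of the 7 genes was called, and 0 with counts drawn down to the smallest total, in male libraries, cortex or hippocampus alone, or without the female WSB/EiJ libraries. With single libraries left out the number was 0 to 1. Without the libraries that stood apart it was 1, but Kcnj2 in place of Slc12a2 (adjusted p = 0.138, edgeR). By origin it was 0, and 1 (Kcnj2) without WSB/EiJ. By sex it was 0, and 1 (Slc9a2) with DESeq2. By title tag it was 1, but 2 with DESeq2 or with the other labelled factors as covariates (Slc12a7 and Kcnj2), and 0 with astrocyte and neuronal means as covariates, without the WSB/EiJ library with outlying Lars2, or without the libraries that stood apart. It was 0 to 2 with single libraries or strains left out. In pairs of strains it was 1, but 6 with DESeq2, 3 with region and sex as covariates and 2 (both Kcnj2) without the libraries that stood apart, 2 of which Kcnj2 itself picked. Without the female WSB/EiJ libraries, among them the one with 0 counts of Kcnj2, Kcnj2 passed for CAST/EiJ against 129S1/SvImJ. Its log2 fold change there was 1.34 (SE 0.35, adjusted p = 0.025, edgeR). The cause of these changes was not tested. Calls by region and the interactions stayed at 0 in the alternatives run. No call turned its direction. Over all genes the numbers called ran from 184 to 1314 by strain (781 in the main test), 7 to 395 by origin (218), 11 to 57 by region (22), 67 to 1011 by sex (830) and 1 to 640 by title tag (293), and up to 24, 21 and 23 for the interactions of sex and region, sex and origin, and origin and region. No paired analysis was possible because the mouse of each library is not in the labels. Depth limits low values: Slc9a2 rested on 1 to 11 counts in 3 libraries.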
